A study of Mus musculus with 4 samples.

Results

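Axon guidance genes encode secreted or membrane-bound cues and the receptors that read them. Of the 22802 loci in the table of mouse testicular cells, 71 carried a symbol of the semaphorin, ephrin, Slit or netrin ligands or of the plexin, neuropilin, Eph, Robo, Dcc, neogenin (Neo1) or Unc5 receptors. They were chosen by name and not by level, and comprised 35 ligands and 36 receptors. The receptor count includes Plxna4os1, an antisense transcript that the plexin name pattern also matched. The rows of Ntn3 and Ntng2 are merged with a neighbouring gene and were not among the 71.

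RNA was sequenced from cells of C57BL/6J testes at postnatal day 10, in 2 laminin-positive and 2 laminin-negative libraries. All mice carried mFLE-Cre, named for a fetal Leydig enhancer of the gene Nr5a1, and the CAG-CAT-EGFP reporter, which turns on EGFP where Cre has acted. Dispersed cells were sorted by EGFP and laminin staining. Both populations are labelled EGFP-positive, but the design text describes EGFP as weak where laminin is absent, so laminin staining and EGFP level cannot be told apart. Whether separate animals gave the 2 libraries of a population is not stated in the labels, and p-values here reflect only library-to-library spread, which may be technical.

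Guidance cues steer growing axons, and the same molecules position migrating cells and shape vessels in other tissues. Class 3 semaphorins are secreted and bind neuropilins, which signal with plexins, whereas other semaphorins bind plexins directly. Ephrins are anchored in the membrane of one cell and bind Eph receptor tyrosine kinases on the next. Slits bind Robo receptors, and netrins such as Ntn1 bind Dcc, neogenin and Unc5 receptors.

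Levels are in FPKM, which scales fragment counts by transcript length and library size, so that different genes can be compared. FPKM summed to 504000 and 491500 in the laminin-positive and 532300 and 549000 in the laminin-negative libraries. Steps among the lowest values gave ratios of depth between libraries of 0.916 to 1.04. In a separate estimate from 27 to 29 genes a library inside a set window, 1 FPKM of a 2 kb transcript was 54.2 to 56.1 fragments. The window sets the range in which these estimates can fall, so it limits both their level and how far they can differ between libraries. Of 6 smooth muscle and peritubular myoid markers 6 were higher in laminin-positive cells, with summed FPKM of 5345 and 5404, against 167 and 154 in laminin-negative libraries. Of 6 Leydig markers 6 were lower, with sums of 207 and 161 FPKM, against 4824 and 4568 in laminin-negative libraries. The row of Insl3, merged with Jak3, gave 126 and 86.97 FPKM of these sums in laminin-positive and 4080 and 3822 FPKM in laminin-negative libraries. Without it the Leydig sums were 80.2 and 73.65 FPKM in laminin-positive and 744 and 746 FPKM in laminin-negative libraries. Of 8 endothelial markers 1 was higher and 2 were lower, with sums of 15.55 and 14.7 FPKM in laminin-positive and 169 and 177 FPKM in laminin-negative libraries. Cdh5 alone gave 165 and 173 FPKM of the laminin-negative sums, while Pecam1, Kdr, Tie1 and Vwf stayed under 1 FPKM in every library. Without Cdh5 the order turned, with sums of 5.66 and 5.42 FPKM in laminin-positive and 3.83 and 4.11 FPKM in laminin-negative libraries. Of 8 Schwann cell and nerve markers 2 were higher and 2 lower, with sums of 33.7 and 31.0 FPKM in laminin-positive and 96.8 and 93.1 FPKM in laminin-negative libraries, and Sox10, Erbb3 and Mbp stayed under 1 FPKM in every library. S100b alone gave 75.3 and 76.1 FPKM of the laminin-negative sums, and without it the order turned, with 32.65 and 30.1 FPKM in laminin-positive and 21.5 and 17.02 FPKM in laminin-negative libraries. All 6 pericyte markers were higher, with sums of 309.6 and 315 FPKM in laminin-positive and 49.6 and 46.05 FPKM in laminin-negative libraries. So were 4 of 6 macrophage markers, with sums of 25.2 and 22.8 FPKM in laminin-positive and 5.95 and 3.47 FPKM in laminin-negative libraries. Of 6 Sertoli markers 4 were higher (141 and 133 FPKM in laminin-positive, 65.8 and 61.6 in laminin-negative libraries), and of 6 germ cell markers 5 (25.5 and 24.4 FPKM in laminin-positive, 9.89 and 12.1 in laminin-negative libraries). All 6 fibroblast markers were lower, with sums of 1975 and 1896 FPKM in laminin-positive and 5764 and 6009 FPKM in laminin-negative libraries. Counts of higher and lower markers are limma calls at adjusted p under 0.05, described below. Of all 12348 tested genes, 26.6% were called higher and 26.3% lower. The part of these cell types in the differences below was not tested. In bulk samples, fewer cells of a type and less RNA per cell cannot be told apart.

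The regulatory sequences printed here come from both members of each of 2 pairs in which one gene differed strongly between the populations and its relative did not. They are the 250 bases before the annotated start of the Eph receptor genes Epha8 and Ephb2, neighbours 93.4 kb apart on chromosome 4, and of the ligand genes Slit2 and Slit3. Starts and sequences are from RefSeq on GRCm38.p6, 5′ to 3′ on the gene's strand. GENCODE M21 starts Slit3 at 35121224 and Slit2 at 47983138, both inside the printed windows. Most of the Slit3 window, with all its GC boxes, thus lies within the GENCODE gene, so the Slit windows are not alike. Capitals mark each match to GGGCGG, the GC box, on either strand, and matches may overlap.
Epha8 (chr4:136956817-136957066, minus strand): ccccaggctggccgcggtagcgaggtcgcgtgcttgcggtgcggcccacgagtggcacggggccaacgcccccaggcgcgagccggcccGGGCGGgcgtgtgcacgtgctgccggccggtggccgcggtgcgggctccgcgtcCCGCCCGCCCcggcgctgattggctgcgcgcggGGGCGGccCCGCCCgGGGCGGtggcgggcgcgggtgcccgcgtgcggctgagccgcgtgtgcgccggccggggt
Ephb2 (chr4:136836013-136836262, minus strand): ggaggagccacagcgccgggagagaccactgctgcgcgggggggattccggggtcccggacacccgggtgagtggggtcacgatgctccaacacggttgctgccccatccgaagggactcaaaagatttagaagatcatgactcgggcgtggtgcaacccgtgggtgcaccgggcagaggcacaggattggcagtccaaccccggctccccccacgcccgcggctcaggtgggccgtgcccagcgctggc
Slit2 (chr5:47982905-47983154, plus strand): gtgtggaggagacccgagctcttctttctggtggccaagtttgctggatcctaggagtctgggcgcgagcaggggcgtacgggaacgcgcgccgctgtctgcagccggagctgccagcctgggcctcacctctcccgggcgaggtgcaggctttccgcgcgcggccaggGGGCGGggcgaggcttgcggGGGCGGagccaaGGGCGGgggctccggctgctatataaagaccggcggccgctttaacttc
Slit3 (chr11:35121206-35121455, plus strand): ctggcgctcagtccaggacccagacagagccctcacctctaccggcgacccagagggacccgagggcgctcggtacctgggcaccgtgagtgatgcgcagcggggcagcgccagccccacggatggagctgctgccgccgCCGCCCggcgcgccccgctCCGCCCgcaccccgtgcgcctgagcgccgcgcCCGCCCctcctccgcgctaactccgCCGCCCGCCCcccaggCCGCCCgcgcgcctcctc
The Epha8 window held 6 GC boxes at a GC content of 84.0%, and the Ephb2 window held 0 at 68.4%. Slit2 had 3 and Slit3 had 6, at 69.6% and 78.8% GC. RefSeq promoters of 300 bases were matched for 60 of the 71 members, with 76 starts. GGGCGG was in 71.1% of these windows, against 35.7% of all 32851 RefSeq promoters of that length. Member windows were also richer in G and C, with a median GC content of 64.2% against 52.7% in all promoters. GGGCGG was in 14 of 17 windows of members higher in laminin-positive cells and in 21 of 28 windows of those lower. The share for windows of all tested members was 75.9%. Some genes have several starts, so the 17 windows come from 15 genes and the 28 from 19, and other called members had no matched promoter. AAGGTCA, the half-site of Nr5a1, was in 5.26% of member windows against 4.72% of all, searched on both strands, and in 1 of 17 windows of members called higher and 2 of 28 of those called lower. The CArG box, bound by serum response factor in smooth muscle genes, was in 2.63% against 1.63%. Its 2 member windows belong to Sema4d, which was not tested, and Robo1, which was not called, so it was in 0 of 17 windows of members called higher and 0 of 28 of those called lower. A match is a string of letters and not a shown binding site.

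Some guidance genes were higher in one population and some in the other, while abundant members such as Slit3 and Ephb4 were high in both. Laminin-positive cells held more Epha8, an Eph receptor (28.5-fold), and more of the ligand genes Sema5a, Sema4f, Sema3c and Efnb2. Laminin-negative cells held more Slit2 (18.9-fold) with its receptor gene Robo2, more Nrp2 (13.95-fold) with Plxna1 and Plxnd1, and more Sema5b, Sema4a, Sema3f and Ntn1. Of the 71 members, 48 reached 1 FPKM in at least 2 libraries and were tested with limma on log2(FPKM + 1), with p-values adjusted by the Benjamini-Hochberg method over all tested genes. At adjusted p under 0.05, the laminin-positive level was higher for 16 and lower for 23. Over all 12348 tested genes 52.9% were called, 26.6% higher and 26.3% lower. The populations did not overlap for 45 of the 48 tested members, where 77.2% of all tested genes did not overlap. A log2 difference of at least 1 with a call was found for 7 higher and 10 lower members, against 13.2% of all tested genes in either direction, 7.29% higher and 5.89% lower. The members' median absolute log2 difference was 0.72, and that of all tested genes 0.28. No test compares this list with other genes. Of the 48, 4 passed the level filter through 1 population only (Efnb2, Sema7a, Sema3b and Epha1), so their place among the tested genes depended on that difference. That is 8.33% of tested members, near the 7.06% of all tested genes that passed in this way.

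By class, 11 of 26 tested ligands were higher and 12 lower, and 5 of 22 tested receptors were higher and 11 lower. Among all tested genes 26.6% were higher and 26.3% lower. The median log2 difference was -0.11 for ligands and -0.22 for receptors, against 0.01 for all tested genes. Summed over the class, ligands came to 606 and 602 FPKM in laminin-positive libraries, against 619 and 569 in laminin-negative libraries. Receptors came to 415 and 408 FPKM in laminin-positive and 421.5 and 383 FPKM in laminin-negative libraries. The totals of both classes overlapped between populations, while single members moved in both directions. Epha8 alone gave 132 and 127 FPKM of the laminin-positive receptor totals, against 4.57 and 4.52 FPKM of the laminin-negative ones. The overlap of the receptor totals depends on this gene, and the other receptors together were lower in laminin-positive libraries. Scaling libraries to equal FPKM sums, taken without the row of Rn45s, shifted the median of all tested genes to 0.11. The share of calls that were higher became 64.1%, against 50.3% as deposited, so small differences depend on scaling. Without variance shared across genes limma called 9 members higher and 13 lower (33 members at an unadjusted p under 0.05). Without laminin-negative replicate 1, 6 receptors were lower instead of 11.

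**Figure D1:**
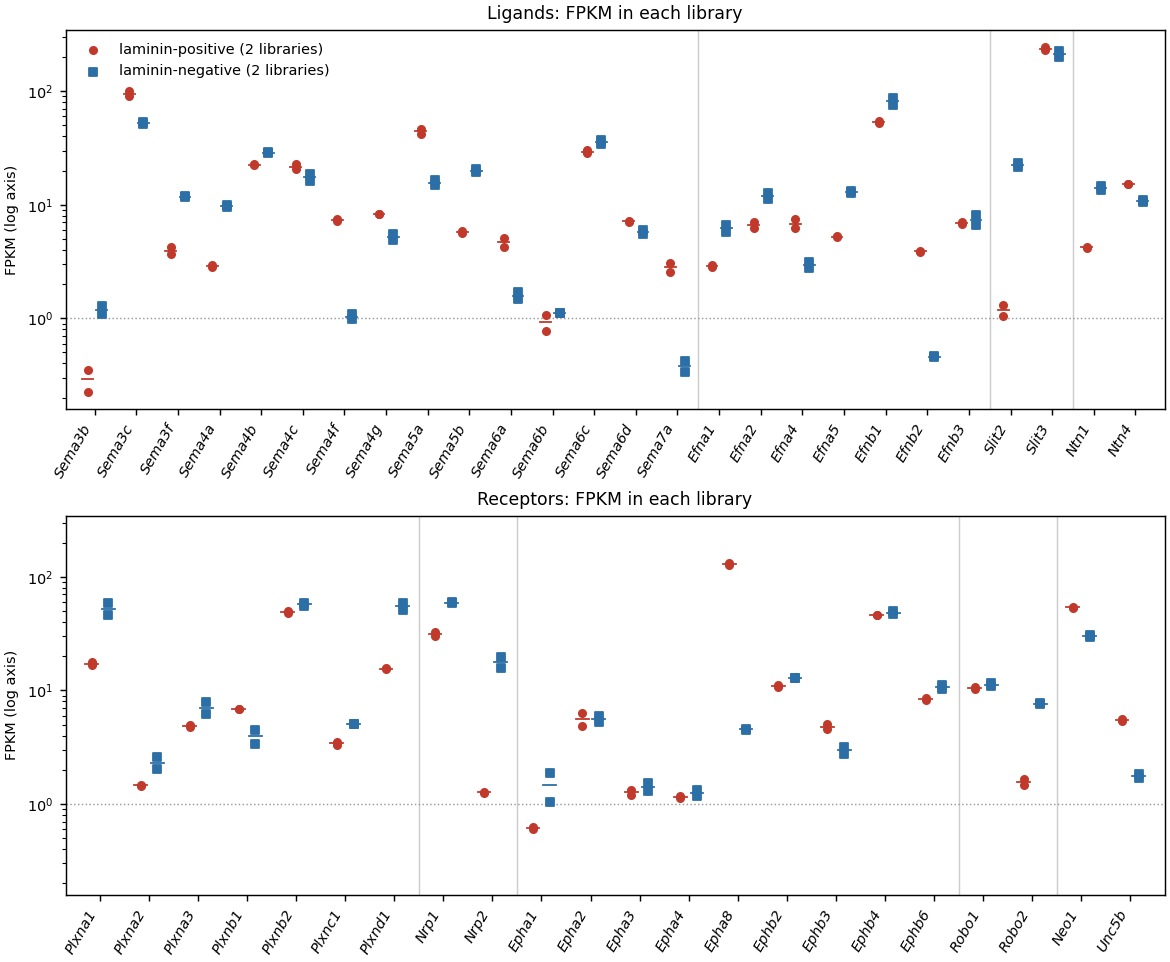
FPKM on a log axis of the 48 tested members in each of the 2 laminin-positive libraries (circles) and 2 laminin-negative libraries (squares), grouped by family, with bars at the population means and a dotted line at 1 FPKM. Epha8 stands at 132 and 127 FPKM in laminin-positive libraries, against 4.57 and 4.52 in laminin-negative ones, while Slit3 is the highest ligand in all 4.

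Semaphorins were the largest ligand family, with 15 of 20 members tested. Laminin-positive cells held more of 8 and less of 6, where 52.9% of all tested genes were called. Semaphorin FPKM summed to 256 and 263 in laminin-positive libraries, against 212 and 205.5 in laminin-negative libraries. The most abundant was Sema3c, a secreted semaphorin that signals through neuropilins with plexin D1 (chromosome 5, 17574281 to 17730268 on GRCm38). It had 91.2 and 99.9 FPKM in laminin-positive libraries, against 51.0 and 53.5 FPKM in laminin-negative libraries. The populations did not overlap, and the log2 difference was 0.86 (SE 0.08, limma adjusted p = 4.15e-06). Sema3f, whose preferred receptor is Nrp2, went the other way with 4.21 and 3.66 FPKM in laminin-positive and 11.7 and 11.9 FPKM in laminin-negative libraries. Its neighbour Sema3b, 72.3 kb away on chromosome 9, was also lower at 0.289 ± 0.0912 FPKM in laminin-positive and 1.19 ± 0.128 FPKM in laminin-negative cells (SD, n = 2 each, as for every mean below). The Sema3b call was lost without shared variance (limma adjusted p = 0.0596, range 4.27e-04 to 0.0596). So among the 3 tested secreted semaphorins Sema3c rose and Sema3b and Sema3f fell. Sema3b passed the level filter through its laminin-negative libraries only, so its fall adds little to this count. Sema3a, Sema3d and Sema3e stayed under 0.1 FPKM in every library. Sema3g, not tested either, reached 0.869 FPKM at most and averaged 0.798 FPKM in laminin-positive and 0.266 FPKM in laminin-negative cells.

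The class 5 semaphorins, membrane proteins with thrombospondin repeats, were opposite to each other. Sema5a (chromosome 15, 32244810 to 32696341) had 42.3 and 46.25 FPKM in laminin-positive libraries, against 16.5 and 14.9 FPKM in laminin-negative libraries, a 2.82-fold rise. Sema5b (chromosome 16, 35541145 to 35664732) had 5.675 and 5.92 FPKM in laminin-positive libraries, against 20.5 and 19.6 FPKM in laminin-negative libraries. Neither gene's populations overlapped, with log2 differences of 1.44 (SE 0.09, limma adjusted p = 1.77e-07) and -1.63 (SE 0.09, limma adjusted p = 9.24e-08). Sema5a exceeded Sema5b in laminin-positive cells, and Sema5b exceeded Sema5a in laminin-negative cells.

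The transmembrane class 4 semaphorins, many of which bind B plexins, were likewise mixed. Sema4f showed the largest rise among ligands on the log2(FPKM + 1) scale, with 7.17 and 7.54 FPKM in laminin-positive and 1.09 and 0.985 FPKM in laminin-negative libraries (log2 difference 2.04, SE 0.11, limma adjusted p = 8.65e-08). Sema4a had 2.95 and 2.83 FPKM in laminin-positive libraries, against 9.88 and 9.51 FPKM in laminin-negative libraries (log2 difference -1.46, SE 0.10, limma adjusted p = 5.725e-07). Both are clear of the spread between libraries. The rank of Sema4f depends on the pseudocount: at 0.1 the log2 difference was 2.72 for Sema4f and 2.84 for Efnb2, and the plain ratio was 7.10 for Sema4f and 8.49 for Efnb2. Of the more abundant class 4 members, Sema4b was slightly lower at 22.6 ± 0.153 FPKM in laminin-positive and 28.8 ± 0.418 FPKM in laminin-negative cells. Sema4c averaged 21.7 ± 1.44 and 17.6 ± 1.74 FPKM, and Sema4g 8.36 ± 0.0214 and 5.22 ± 0.406 FPKM, the laminin-positive mean given before the laminin-negative one. Both were called higher. The call of Sema4c was lost without laminin-positive replicate 1 (adjusted p = 0.173) or laminin-negative replicate 2 (0.135), with no filter (0.0653) and without shared variance (0.219), and its lowest limma p over the alternatives was 0.0049. That of Sema4g was lost without shared variance (0.0547, range 1.51e-04 to 0.0547).

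Of class 6, also transmembrane and read by A plexins, Sema6c was the most abundant at 29.5 ± 1.52 FPKM in laminin-positive and 36.0 ± 2.01 FPKM in laminin-negative cells. Sema6a averaged 4.66 ± 0.621 FPKM in laminin-positive and 1.59 ± 0.159 FPKM in laminin-negative cells, a 2.94-fold rise. Sema6d was higher by a log2 difference of 0.28 and Sema6b did not pass the test (limma adjusted p = 0.384). The class 6 calls were less firm than those of classes 3 and 5. Sema6c lost its call without laminin-positive replicate 2 (limma adjusted p = 0.121) or laminin-negative replicate 1 (0.0624), with FPKM sums made equal (0.147) and without shared variance (0.139), and its lowest p over the alternatives was 0.00822. Sema6d lost it without either laminin-positive replicate (0.1445 and 0.188) or laminin-negative replicate 2 (0.128), with quantile normalization (0.0779), with no filter (0.0757) and without shared variance (0.097), in a limma range of 0.0119 to 0.188. Sema6a lost it only without shared variance (adjusted p = 0.0553, range 1.25e-06 to 0.0553 by limma). Sema7a, the GPI-anchored semaphorin that binds plexin C1 and integrins, had 3.09 and 2.56 FPKM in laminin-positive and 0.421 and 0.339 FPKM in laminin-negative libraries. Its receptor gene Plxnc1 was lower in laminin-positive cells, at 3.42 ± 0.144 FPKM against 5.07 ± 0.0428 FPKM in laminin-negative cells.

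The receptors of semaphorins were lower in laminin-positive cells with 1 exception among those tested. Neuropilins summed to 31.5 and 33.9 FPKM in laminin-positive libraries, against 79.2 and 75.02 in laminin-negative libraries. Plexins summed to 100 and 96.4 FPKM in laminin-positive and 197 and 170 FPKM in laminin-negative libraries. Both sums were lower in each laminin-positive library than in either laminin-negative one. All 7 tested plexins were called, 6 lower and Plxnb1 higher, where 52.9% of all tested genes were called and 26.3% were lower. The calls of Plxna2, Plxna3 and Plxnb2 depended on the settings, as given below.

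Nrp2 (chromosome 1, 62703285 to 62818695), a coreceptor for class 3 semaphorins and VEGF-C, had the largest fall of any receptor. It had 1.25 and 1.28 FPKM in laminin-positive libraries, against 19.6 and 15.6 FPKM in laminin-negative libraries (log2 difference -3.03, SE 0.12, limma adjusted p = 7.95e-09). Nrp1, the more abundant neuropilin in every library, fell less (chromosome 8, 128358604 to 128503363). It had 30.3 and 32.6 FPKM in laminin-positive libraries, against 59.6 and 59.4 FPKM in laminin-negative libraries. Nrp2 made up 3.95% and 3.78% of neuropilin FPKM in laminin-positive libraries, against 24.8% and 20.8% in laminin-negative libraries.

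Plxnd1, which pairs with neuropilins and also binds Sema3e directly (chromosome 6, 115954811 to 115995005), had 15.7 and 15.4 FPKM in laminin-positive libraries, against 59.3 and 51.3 FPKM in laminin-negative libraries. Plxna1, a signalling partner of neuropilins (chromosome 6, 89316314 to 89362620), had 17.65 and 16.6 FPKM in laminin-positive libraries, against 58.3 and 46.2 FPKM in laminin-negative libraries. The log2 differences were -1.76 (SE 0.09, limma adjusted p = 4.14e-08) for Plxnd1 and -1.55 (SE 0.11, limma adjusted p = 5.26e-07) for Plxna1. Neither gene overlapped between populations, although laminin-negative replicate 1 was above replicate 2 for both. Plxna1 lost its call without shared variance (adjusted p = 0.0534 by limma), and its log2 difference ran from -1.71 to -1.38 over the alternatives. Plxnb2, a class 4 semaphorin receptor, was the most abundant plexin in all 4 libraries and differed little. It had 50.1 and 47.7 FPKM in laminin-positive libraries, against 59.4 and 55.7 FPKM in laminin-negative libraries. Its call (limma adjusted p = 0.0238) was lost without laminin-positive replicate 1 (0.0588), laminin-positive replicate 2 (0.168) or laminin-negative replicate 1 (0.0842). It was also lost without shared variance (0.127). Scaling to equal sums gave 0.282, the highest p over the alternatives, of which the lowest was 0.0189.

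Plxnb1, another class 4 semaphorin receptor, was higher at 6.89 ± 0.0318 FPKM in laminin-positive and 3.94 ± 0.785 FPKM in laminin-negative cells. This call was lost without shared variance (limma adjusted p = 0.121, range 2.08e-04 to 0.121). Plxna2 and Plxna3 fell by 0.42 and 0.44 on the log2 scale. Plxna2 lost its call without laminin-positive replicate 1 (limma adjusted p = 0.0515) or 2 (0.0655) or laminin-negative replicate 1 (0.0842), with no filter (0.0501) and without shared variance (0.146), with a lowest p of 0.00801. Plxna3 lost it without laminin-negative replicate 1 (limma adjusted p = 0.059) and without shared variance (0.1775), with a lowest p of 0.00343. Plxna4 and Plxnb3 were below 0.1 FPKM in every library and Plxna4os1 was listed at 0 in all 4. Plxna4 and Plxna4os1 have the same locus in the table, and no source gives the strand setting used in quantification.

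**Figure D2:**
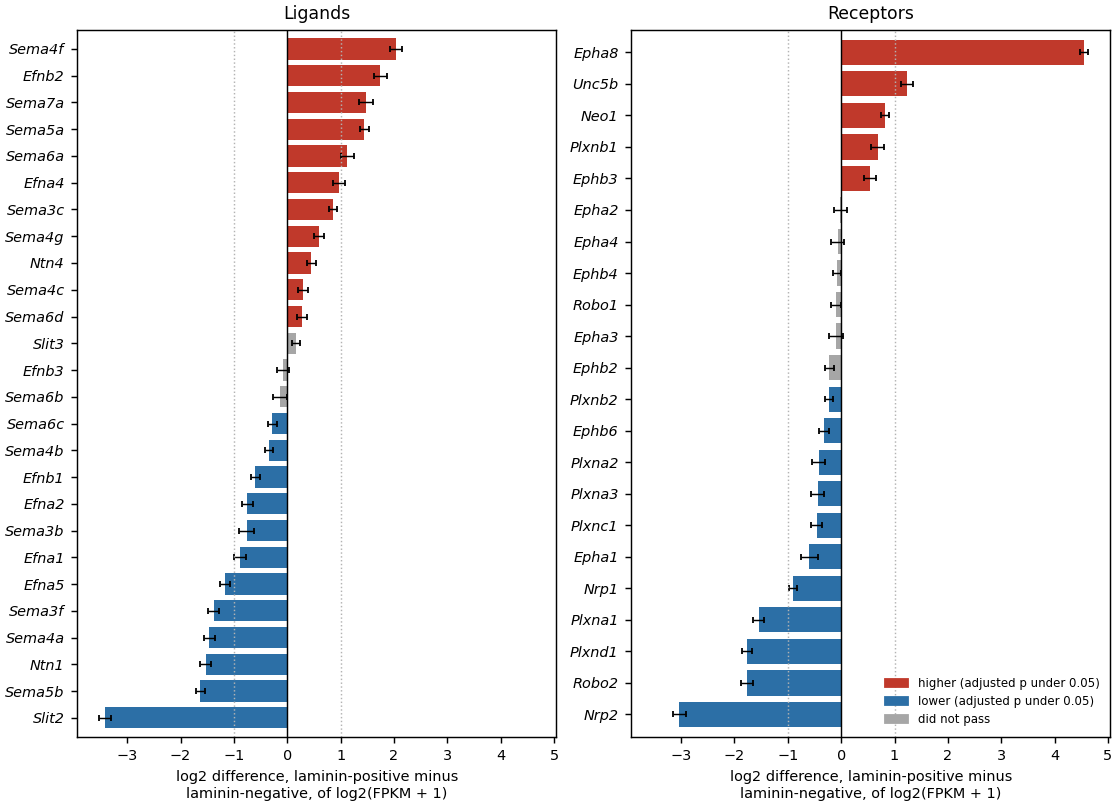
Log2 difference of log2(FPKM + 1), laminin-positive minus laminin-negative, for the 26 tested ligands and 22 tested receptors, with bars coloured by limma call and error bars of 1 SE. Slit2 (-3.42) and Nrp2 (-3.03) lie at the low end and Epha8 (4.56) at the high end, beyond every other member.

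Eph receptors were the family with the largest single change and otherwise little change. Epha8 encodes a receptor tyrosine kinase for GPI-anchored A ephrins (chromosome 4, 136929419 to 136956816). It had 132 and 127 FPKM in laminin-positive libraries, against 4.57 and 4.52 FPKM in laminin-negative libraries (log2 difference 4.56, SE 0.08, limma adjusted p = 4.47e-11). No member had a larger difference, and its log2 difference stayed between 4.53 and 4.80 over the alternatives. Epha8 alone was 62.2% and 62.0% of all Eph receptor FPKM in laminin-positive libraries, against 4.93% and 5.17% in laminin-negative libraries. Ephb4, a receptor for ephrin-B2, held the highest share in laminin-negative libraries at 53.5% and 54.2%, with 21.7% and 22.3% in laminin-positive libraries.

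The level of Ephb4 itself did not pass the test, at 45.8 ± 0.0491 FPKM in laminin-positive and 48.5 ± 1.56 FPKM in laminin-negative cells (limma adjusted p = 0.3725). Ephb2, the neighbour of Epha8, averaged 10.9 ± 0.374 FPKM in laminin-positive and 12.9 ± 0.0151 FPKM in laminin-negative cells (limma adjusted p = 0.0564, with 0.0288 under quantile normalization and 0.388 at most over the alternatives). Of 9 tested Eph receptors, 2 were higher, Epha8 and Ephb3, and 2 were lower, Epha1 and Ephb6. That is 44.4% called, against 52.9% of all tested genes. Ephb3, which binds B ephrins, averaged 4.79 ± 0.338 FPKM in laminin-positive and 2.97 ± 0.303 FPKM in laminin-negative cells, a call lost without shared variance (limma adjusted p = 0.0892, range 6.59e-04 to 0.0892). Ephb6, a family member without kinase activity, averaged 8.41 ± 0.312 FPKM in laminin-positive and 10.8 ± 0.615 FPKM in laminin-negative cells. The call did not hold without laminin-positive replicate 2 (0.112) or laminin-negative replicate 1 (0.0625), with FPKM sums made equal (0.111) or without shared variance (0.0976), in a limma adjusted p range of 0.00731 to 0.112. Epha1 had 0.621 and 0.596 FPKM in laminin-positive and 1.89 and 1.05 FPKM in laminin-negative libraries. It lost its call without laminin-negative replicate 1 (log2 difference -0.35) and without shared variance (limma adjusted p = 0.228). The Epha1 row has a locus of 30.7 kb for a gene of 14.8 kb, which leaves its value uncertain. Epha2, Epha3 and Epha4 did not pass the test, at means of 1.14 to 5.58 FPKM in laminin-positive and 1.25 to 5.62 FPKM in laminin-negative cells.

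Ephrins summed to 85.6 and 87.1 FPKM in laminin-positive libraries, against 132 and 116 FPKM in laminin-negative libraries. Of the A ephrins, the ligands of EphA receptors, Efna1, Efna2 and Efna5 were lower in laminin-positive cells and Efna4 was higher. Efna5 (chromosome 17, 62604184 to 62881317) had 5.18 and 5.26 FPKM in laminin-positive libraries, against 13.2 and 12.6 FPKM in laminin-negative libraries (log2 difference -1.16, SE 0.09, limma adjusted p = 1.93e-06). Efna1, Efna3 and Efna4 lie together on chromosome 3, with gaps of 32.8 and 10.4 kb. In this cluster Efna1 averaged 2.89 ± 0.0485 FPKM in laminin-positive and 6.21 ± 0.635 FPKM in laminin-negative cells, while Efna4 averaged 6.81 ± 0.882 and 2.98 ± 0.254 FPKM in the same order. Efna3, between them, was at 0.424 ± 0.0199 and 0.43 ± 0.14 FPKM and was not tested. Neighbours thus moved in opposite directions. Efna2 averaged 6.70 ± 0.594 FPKM in laminin-positive and 11.9 ± 1.01 FPKM in laminin-negative cells, but its row has a locus of 672 kb for a gene of 10.5 kb, which leaves its value uncertain. The calls of Efna2 and Efna4 were lost without shared variance (limma adjusted p = 0.0728, range 3.78e-05 to 0.0728, and 0.0663, range 4.92e-06 to 0.0663).

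The B ephrins are transmembrane ligands that also signal into the cell that carries them. Efnb1, the most abundant ephrin, had 52.65 and 54.4 FPKM in laminin-positive libraries, against 88.1 and 75.7 FPKM in laminin-negative libraries (log2 difference -0.60, SE 0.08, limma adjusted p = 1.48e-04). This call was lost without shared variance (0.0912, range 7.39e-05 to 0.0912 by limma). Efnb2, known from arterial endothelium and mural cells, had 3.93 and 3.84 FPKM in laminin-positive libraries, against 0.453 and 0.462 FPKM in laminin-negative libraries (8.49-fold). Efnb3 did not pass the test at 6.91 ± 0.142 FPKM in laminin-positive and 7.41 ± 1.03 FPKM in laminin-negative cells (limma adjusted p = 0.546). Efnb1 fell and Efnb2 rose, and Efnb1 stayed the higher of the pair in every library.

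Slit ligands and Robo receptors each combined a stable abundant member with a member that was lower in laminin-positive cells. Slit3 (chromosome 11, 35121224 to 35708507) was the most abundant guidance gene of all, with 243 and 231 FPKM in laminin-positive libraries, against 224 and 201 FPKM in laminin-negative libraries. Its difference did not pass the test (log2 difference 0.16, SE 0.08, limma adjusted p = 0.114). It did with equal FPKM sums (0.011), with quantile normalization (0.0398) and without laminin-negative replicate 1 (0.0273), in a range of 0.011 to 0.4255 by limma. Slit2, a secreted repellent of the same family (chromosome 5, 47983138 to 48307733), had 1.04 and 1.32 FPKM in laminin-positive libraries, against 23.1 and 21.4 FPKM in laminin-negative libraries. This was the largest fall of any member (log2 difference -3.42, SE 0.11, limma adjusted p = 1.37e-09). Slit1, mainly a neuronal gene, stayed at 0.138 and 0.146 FPKM in laminin-positive and 0.510 and 0.521 FPKM in laminin-negative libraries.

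Robo2 (chromosome 16, 73891839 to 74411825) followed the direction of Slit2, with 1.46 and 1.64 FPKM in laminin-positive libraries, against 7.73 and 7.60 FPKM in laminin-negative libraries (log2 difference -1.76, SE 0.11, limma adjusted p = 2.26e-07). Robo1, 846 kb away on the same chromosome, had 10.3 and 10.6 FPKM in laminin-positive libraries, against 11.5 and 10.9 FPKM in laminin-negative libraries. The Robo1 populations did not overlap, yet the difference did not pass the test (limma adjusted p = 0.413). Robo3 and Robo4, which lie side by side on chromosome 9, were below 0.4 FPKM in every library. Robo4 is known as an endothelial gene and had 0.368 and 0.208 FPKM in laminin-positive and 0.132 and 0.125 FPKM in laminin-negative libraries.

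**Figure D3:**
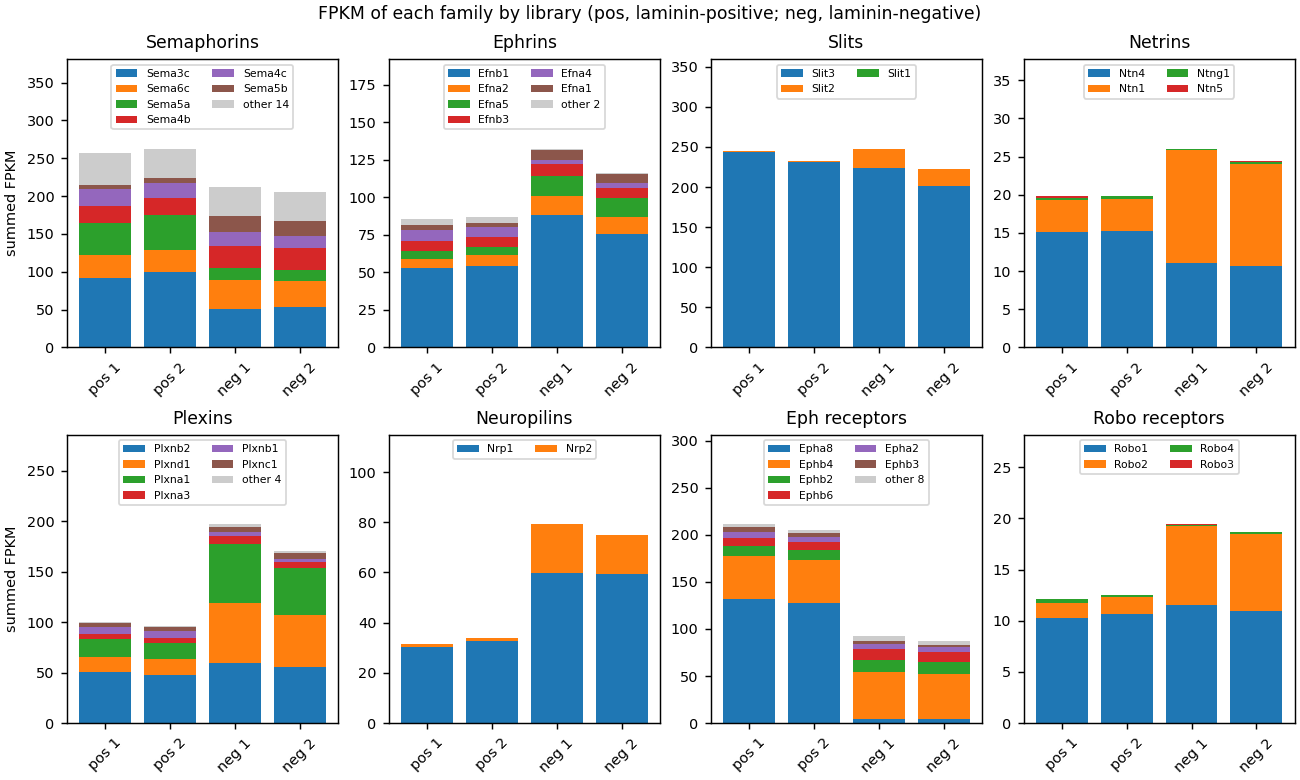
Summed FPKM of 8 families (netrin receptors not drawn) by library, stacked by member, with laminin-positive libraries (pos) left of laminin-negative libraries (neg), the 6 most abundant members coloured and any others in grey. Epha8 fills 62.2% and 62.0% of the Eph receptor bars of laminin-positive libraries, and Slit3 fills 90.2% or more of every Slit bar.

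Netrins are relatives of laminin chains, and those named Ntn are secreted. Ntn1, the attractant that binds Dcc, neogenin and Unc5 receptors (chromosome 11, 68209364 to 68400823), had 4.19 and 4.24 FPKM in laminin-positive libraries, against 14.8 and 13.4 FPKM in laminin-negative libraries (log2 difference -1.53, SE 0.10, limma adjusted p = 3.12e-07). Ntn4, a netrin of basement membranes that binds laminin, had 15.2 and 15.2 FPKM in laminin-positive libraries, against 11.1 and 10.6 FPKM in laminin-negative libraries (log2 difference 0.45, SE 0.09, limma adjusted p = 0.00127). Ntn1 exceeded Ntn4 in both laminin-negative libraries and Ntn4 exceeded Ntn1 in both laminin-positive libraries. Ntn5 and Ntng1 were below 0.4 FPKM in every library. A row that merges Ntng2 with 6530402F18Rik was at 5.61 ± 0.778 FPKM in laminin-positive and 43.5 ± 1.35 FPKM in laminin-negative cells, and one that merges Ntn3 with Tbc1d24 at 25.0 ± 0.393 and 17.2 ± 0.742 FPKM. The share of each gene in those rows is not known.

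Both tested netrin receptors were higher in laminin-positive cells. Neo1, the neogenin receptor for netrins and repulsive guidance molecules (chromosome 9, 58874687 to 59036441), had 53.6 and 54.0 FPKM in laminin-positive libraries, against 30.55 and 29.6 FPKM in laminin-negative libraries (log2 difference 0.82, SE 0.07, limma adjusted p = 4.11e-06). Unc5b, a repulsive netrin receptor (chromosome 10, 60762593 to 60831581), had 5.63 and 5.32 FPKM in laminin-positive libraries, against 1.82 and 1.69 FPKM in laminin-negative libraries (log2 difference 1.23, SE 0.11, limma adjusted p = 4.36e-06). Neither overlapped between populations, and both ran against the direction of Ntn1. Dcc, the classical netrin receptor of neurons, did not exceed 0.174 FPKM in any library. Unc5a, Unc5c and Unc5d were not tested either, with Unc5a the highest at 0.494 ± 0.0287 FPKM in laminin-positive and 0.589 ± 0.00611 FPKM in laminin-negative cells.

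In all, 23 members were not tested, 9 ligands and 14 receptors, and 11 of them stayed below 0.1 FPKM in every library. The highest was Sema4d, just under the filter, with 0.995 and 0.978 FPKM in laminin-positive and 0.336 and 0.485 FPKM in laminin-negative libraries. Others of this group with some signal were Epha7 (0.164 and 0.229 against 0.676 and 0.531 FPKM) and Ephb1 (0.361 and 0.281 against 0.0784 and 0.00656 FPKM), laminin-positive values given before laminin-negative ones.

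Of 60 other genes of guidance signalling, listed by role, 48 were tested, and the laminin-positive level was higher for 16 and lower for 15 of them. Among all tested genes 52.9% were called, 26.6% higher and 26.3% lower. Of 42 cytosolic mediators, 37 were tested, with 14 higher and 8 lower. The largest rises were those of Chn1, a Rac-inactivating protein downstream of Eph receptors, Gpc1, a heparan sulfate proteoglycan that binds Slit, and the actin regulator gene Vasp. Chn1 averaged 19.3 FPKM in laminin-positive and 4.42 FPKM in laminin-negative cells, Gpc1 101 and 26.9 FPKM, and Vasp 107 and 34.3 FPKM, in the same order. The largest falls were those of Flrt2, a ligand of Unc5 receptors, Met, a receptor tyrosine kinase that associates with B plexins, and Limk1, which phosphorylates cofilin. Flrt2 averaged 0.916 FPKM in laminin-positive and 7.93 FPKM in laminin-negative cells, Met 1.29 and 8.03 FPKM, and Limk1 7.57 and 21.96 FPKM, in the same order. Each of these 6 passed the limma test, with adjusted p at most 3.62e-07. Of 18 other ligands and coreceptors 11 were tested, with 2 higher and 7 lower, so the split differed in count between the sub-lists, which was not tested. Some calls were near the threshold, such as the rise of Ngef (limma adjusted p = 0.0452) and the fall of Rgma (0.0497).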

How the data were processed

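RNA from sorted testicular cells was extracted with an RNeasy micro kit and made into libraries using a NEBNext Ultra Directional kit, both per the labels' protocols. The authors deposited 1 table of FPKM values per locus, per the file headers. TopHat2 2.1.1 and Cufflinks 2.2.1 are named in the submitters' processing notes without roles. For the genome build, annotation and strand setting, nothing is given in the sources used. Of 21203 uniquely named loci matched to GENCODE M21, 99.6% overlapped their gene on GRCm38, and coordinates are from that annotation.

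Loci at 1 FPKM or more in at least 2 of the 4 libraries were kept. Laminin-positive was compared with laminin-negative by limma 3.58.1 in R 4.3.3 on log2(FPKM + 1), with an intensity trend, two-sided p-values adjusted by Benjamini-Hochberg over all 12348 genes, and a threshold of 0.05. A fold change on this scale understates that of low genes. The fit had 2 residual degrees of freedom, and the median over genes of the prior degrees of freedom was 8.21. An exact permutation test of 2 against 2 cannot go below p = 0.333. Folds in the text are ratios of mean FPKM.

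Library values are given for members past the threshold with an absolute log2 difference of at least 1 and a mean of at least 5 FPKM in either population, and for the most abundant member of each family. Values of other members were added after they were seen. Of the signalling genes, the 3 largest rises and 3 largest falls at 5 FPKM or more are named. Members and lists were chosen with earlier results of these data known. Depth was estimated from the lowest FPKM steps with windows chosen after seeing the data and an assumed fragment length of 200 bases. Alternatives were a pseudocount of 0.1, no filter, equal FPKM sums, quantile normalization, no shared variance, a replicate block, and each library left out. Without shared variance, p came from an ordinary t-test on limma's linear fit and not from its moderated test. Such p-values carry the limma label in the text and are included in the limma ranges. With a library left out, spread rests on fewer data, and p can fall while the SE rises, as for Plxna1. The low end of a p range from such a fit is not stronger support. The level of 1 marker gene is not reported here.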

Additional observations from a re-analysis of the deposited data

How the results depend on the processing

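Of the 39 called members, 22 kept their call under all 10 alternatives and 31 under the 9 that share variance across genes. Without shared variance, 1346 genes were higher and 1211 lower (3288 and 3245 with it), 9 members higher and 13 lower, 6 ligands higher, 3 receptors higher and 5 lower, and 9 signalling genes higher and 6 lower, since each test then rests on 2 residual degrees of freedom. With libraries left out in turn, 2587 to 3254 genes were higher and 2610 to 3064 lower. Members numbered 14 to 17 higher and 17 to 23 lower, ligands 9 to 12 and 11 to 12, receptors 5 and 6 to 11, and signalling genes 14 to 17 and 12 to 16. The 6 lower receptors were those without laminin-negative replicate 1, and the cause was not tested.

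Signs turned only for members that had not passed the test. With equal FPKM sums the log2 difference was 0.02 for Efnb3, 0.09 for Epha2, 0.04 for Ephb4 and 0.02 for Robo1. Without laminin-negative replicate 1 it was 0.04 for Efnb3 and 0.05 for Epha2, and without laminin-positive replicate 2 it was 0.14 for Epha2. Over the 4 libraries left out in turn it ran from -0.21 to 0.04 for Efnb3 and from -0.18 to 0.14 for Epha2. The cause was not tested.

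The replicate number as a block left 16 members higher and 23 lower and called 3376 genes higher and 3343 lower. The numbers share no stated source, and same-numbered libraries did not deviate together (correlation 0.00809 across 12348 genes). With 2 libraries a population, depth is not the only limit, and the spread is known poorly for each single gene.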
